A study of Mus musculus with 4 samples.

Results

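The Hedgehog and PTHrP growth loop was described here through 9 genes, the ligand genes Ihh and Pthlh, the receptor genes Pth1r, Ptch1 and Smo, the transcription factor genes Gli1, Gli2 and Gli3, and the inhibitor gene Hhip. The members were taken by gene symbol alone, and all 9 were present among the 32285 genes of the 4 count matrices. Fracture callus and trabecular bone of 20-week-old male C57BL/6J mice were profiled by scRNA-Seq, with 1 library from control (Ctrl) and 1 from glucocorticoid-treated (GCs) mice for each tissue. Per the labels, the GCs mice carried a subcutaneous pellet that released prednisolone, a synthetic glucocorticoid, at 6.25 mg/kg/d, the control mice carried a placebo pellet, and tissue was taken at week 2. The study's methods describe daily dosing for the fracture experiment instead, and how many animals went into a library is not given in the sources used here. With 1 library per group there was no replicate, so no difference below has a test, and each interval (95%) covers counting error only.

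In the growth plate and in fracture callus, cartilage cells divide, mature, enlarge into hypertrophic chondrocytes that deposit type X collagen, and are replaced by bone. Indian hedgehog (Ihh) is secreted by prehypertrophic and early hypertrophic chondrocytes. It binds the receptor Patched 1 (Ptch1), which releases Smoothened (Smo) and switches the Gli factors from repression to activation, and Ptch1, Gli1 and Hhip are themselves classical targets of that signal. In the growth plate Ihh also raises parathyroid hormone-related protein (PTHrP, encoded by Pthlh) in less mature cells, and PTHrP acts through its receptor Pth1r to delay hypertrophy, which closes a feedback loop.

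On GRCm38 (GENCODE M21 annotation), the ligand gene Ihh lies at chr1:74945315-74951672 on the minus strand and Pthlh at chr6:147252101-147264183 on the minus strand. The receptor genes lie at chr9:110722085-110747145 (Pth1r, minus), chr13:63508328-63573598 (Ptch1, minus) and chr6:29735503-29761365 (Smo, plus). Gli1 lies at chr10:127329882-127341974 (minus), Gli2 at chr1:118834132-119053619 (minus), Gli3 at chr13:15463235-15730026 (plus) and Hhip at chr8:79965851-80058006 (minus). Exons of 4 members overlap exons of genes on the opposite strand, Pth1r with Myl3, Gli1 with Arhgap9 and Gm47200, Gli3 with Gm6556 and Hhip with Gm27820, which is not in the count table, and whether reads were counted by strand is not given in the sources used here. Myl3 stood at no more than 4.25 CPM (UMIs of a gene per 1000000 UMIs) in the skeletal classes described below, Gm6556 at no more than 1.19, and Gm47200 had 0 counts there. Arhgap9 reached 40.2 in T and NK cell-like and 40.4 in neutrophil-like cells, where Gli1 had 1 and 3 counts, whereas in stromal-like cells Arhgap9 had 0.13 and Gli1 had 181 counts.

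The promoters of the ligand gene Ihh and of the response genes Ptch1 and Hhip are shown because the levels of these genes lay in different callus cells, as described below. Each sequence is the RefSeq promoter (GRCm38.p6, minus strand) of 250 bases directly before a RefSeq transcript start, and capitals mark CCACCC or its reverse complement GGGTGG, the core of the Gli binding site GACCACCCA.
Ihh, chr1:74951673-74951922: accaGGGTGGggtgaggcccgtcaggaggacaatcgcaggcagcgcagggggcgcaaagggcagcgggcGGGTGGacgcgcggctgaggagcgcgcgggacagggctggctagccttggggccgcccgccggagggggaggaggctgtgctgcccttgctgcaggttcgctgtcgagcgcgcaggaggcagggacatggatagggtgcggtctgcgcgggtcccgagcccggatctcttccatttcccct
Ptch1, chr13:63565736-63565985: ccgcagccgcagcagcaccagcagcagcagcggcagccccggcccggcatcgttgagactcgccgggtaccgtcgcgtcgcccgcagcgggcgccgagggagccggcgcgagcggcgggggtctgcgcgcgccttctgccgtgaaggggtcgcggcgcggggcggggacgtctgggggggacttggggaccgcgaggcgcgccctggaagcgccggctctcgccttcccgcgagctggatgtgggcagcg
Hhip, chr8:80058009-80058258: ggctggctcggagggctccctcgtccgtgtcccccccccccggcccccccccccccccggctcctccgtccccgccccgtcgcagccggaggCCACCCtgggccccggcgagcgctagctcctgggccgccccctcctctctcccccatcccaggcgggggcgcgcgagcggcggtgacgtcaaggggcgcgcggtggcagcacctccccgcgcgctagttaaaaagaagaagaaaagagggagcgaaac
The Ptch1 window lies inside the span of the gene given above, since GENCODE places the outermost start of Ptch1 further upstream. The RefSeq table held promoters of 8 of the 9 members, all but Gli1. The whole site GACCACCCA, searched on both strands, was in none of them and in 0.225% of all 32851 promoters of this length. The core, which the whole site contains, was found at 2 positions in the promoters of Ihh and Gli2, at 1 in those of Smo, Pthlh, Hhip and Gli3, and at 0 in those of Ptch1 and Pth1r, against at least 1 position in 28.1% of all promoters. The member promoters with the core held 67.2% to 76% G and C, against a median of 52.4% over all promoters. That of Ptch1, without the core, held 78.4%. The core is itself rich in these bases, and the part of base content in the matches was not tested. These matches describe letters only.

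The libraries held 41239842 to 95852254 unique molecular identifiers (UMIs, each 1 counted molecule), and 3820 to 6890 cells per library were kept, with a median of 3287 to 6302 UMIs per cell. Levels are given as CPM, with UMIs summed over the cells of a class or cluster in a library. Cells were clustered and a cluster was named after the marker list it carried, as "X-like". It was left unnamed when its leading genes held more markers of another list. In callus, 41.4% of the control cells and 29.8% of the GCs cells were in clusters named as skeletal. A further 0.566% of the control and 19.5% of the GCs cells were in unnamed clusters. The named shares thus do not show whether skeletal cells were fewer in GCs. The matrix of the GCs callus alone listed no barcode under 500 UMIs, so free RNA could not be read from its empty droplets. Pairs of libraries shared 6 to 11 cell barcodes, where 2.59 to 6.80 would be shared by random draw.

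The callus skeletal cells fell into 8 named clusters. Of the 5 chondrocyte-like clusters, cluster 9 (490 control and 60 GCs cells) and cluster 24 (71 and 6 cells, with all 9 cycling markers) were led by Ucma, a gene of immature cartilage. Cluster 6 (542 and 381 cells) was led by Col11a1 and Col2a1, and cluster 7 (520 and 347 cells) by Ibsp and Col10a1. Cluster 17 (86 and 107 cells) was shallow, with a median of 805 UMIs, and was led by Rbp4, Mmp13 and Mgp. Cluster 1 was hypertrophic-like (633 and 679 cells; Rbp4, Mmp13, Col10a1), cluster 10 stromal-like (262 and 198 cells; Aspn, Col3a1, Postn) and cluster 11 osteoblast-like (172 and 276 cells; Col1a1, Bglap, Dmp1). The stromal-like and osteoblast-like clusters also held 14 and 15 of the 15 chondrocyte markers, and Col2a1 stood at 25912 CPM in control stromal-like cells and 23935 in control osteoblast-like cells, so cartilage RNA in them, of whatever source, was not separated. A further 1345 GCs cells but only 38 control cells fell into unnamed clusters, 1078 and 34 of them in cluster 2, which held all 15 chondrocyte markers but was led by Col1a2 and Col1a1.

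Most UMIs of the 9 genes were in callus, which also held most of the skeletal cells. Over all barcodes, the control callus held 12857 UMIs of Ihh, 63969 of Pth1r and 17944 of Ptch1, the control trabecular library held 0, 54 and 98, and the GCs trabecular library 7, 42 and 111. The scarcer members Pthlh, Gli1 and Gli2 had 323, 516 and 411 UMIs in control callus and 232, 240 and 169 in GCs callus, so their levels by cluster rest on few counts. In the control callus, chondrocyte-like cells held 53.6% of the Ihh UMIs of the kept cells and hypertrophic-like cells 41.7%, or 4493 UMIs. Of the chondrocyte-like part, cluster 7 alone held 3279 UMIs, and its leading genes Ibsp and Col10a1 are on the hypertrophic marker list. The chondrocyte-like share is thus not a share of cells without hypertrophic markers. Ptch1, by contrast, had 3.53% of its UMIs in hypertrophic-like cells and 15.5% in stromal-like cells, and Hhip had 68.3% of its UMIs in osteoblast-like cells, which were 2.56% of the control cells. In the GCs callus, the osteoblast-like share of the Ihh UMIs was 13.3%, against 2.90% in control, and this class was 4.01% of the GCs cells.

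**Figure D1:**
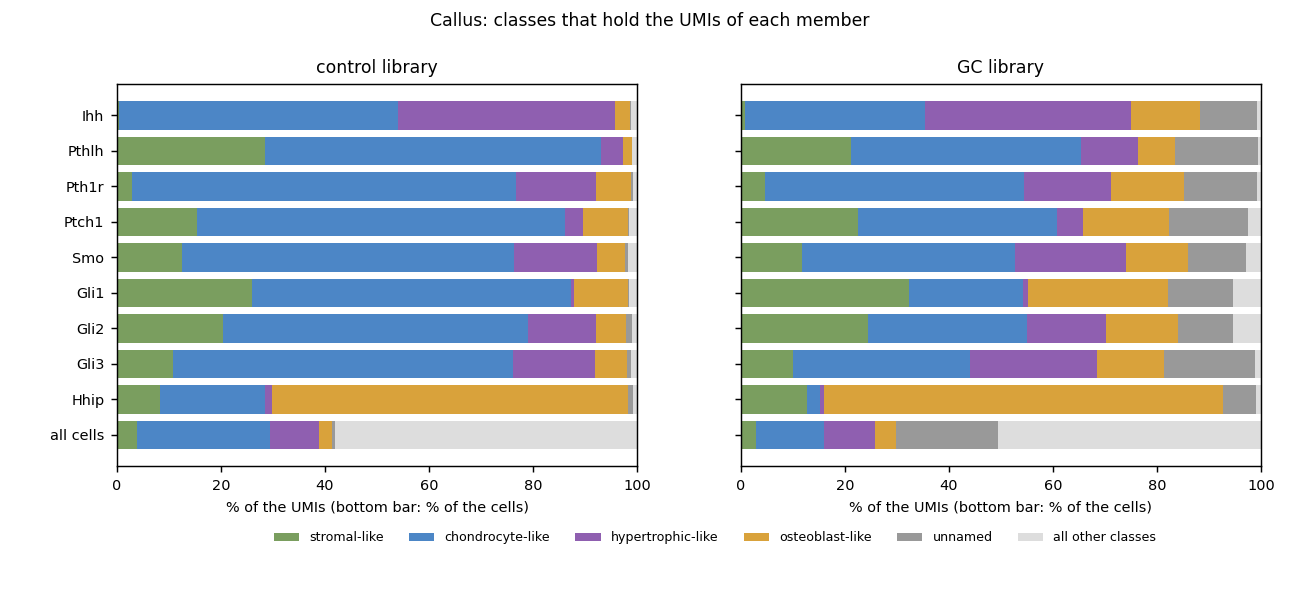
Share of the UMIs of each member (horizontal axis, %) held by each callus cell class in the control and GCs library, with the share of cells in the bottom bar. Ihh lies mostly in chondrocyte-like and hypertrophic-like cells, and Hhip mostly in osteoblast-like cells (68.3% in control and 76.8% in GCs).

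The background from free RNA was read from B cell-like cells, taken here as a class that should lack these genes. Ihh had 13.5 CPM in B cell-like cells of control callus and 7.36 in those of GCs callus, Pth1r 35.9 and 38.3, and Ptch1 24.7 and 14.7. Over both libraries the Ihh level of hypertrophic-like cells was 24.5-fold that of B cell-like cells (16.1 to 39.1). In stromal-like cells the Ihh level was 0.942-fold (0.583 to 1.58) the B cell-like level. The same amount of free RNA weighs less in the CPM of deeper cells. The median depth was 14684.5 UMIs in stromal-like and 1793 in B cell-like cells. Equal CPM thus does not show whether the stromal-like Ihh is background. Empty droplets of the control callus held Ihh at 121 CPM, Pth1r at 573 and Ptch1 at 177, above the B cell-like levels.

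Among the ligands, Ihh was highest in the hypertrophic-like cells of control callus, at 352 CPM (342 to 362). It followed at 228 in cluster 7, 140 in cluster 6 and 87.1 in the osteoblast-like cells, and the Ucma-led clusters 9 and 24 had 22.0 and 18.2, which did not differ beyond counting error. The shallow cluster 17 gave 166 CPM from 14 UMIs and could not be told from clusters 7 and 6. In GCs callus, the order of the named clusters with over 200 Ihh UMIs was hypertrophic-like (191 CPM), osteoblast-like (153), cluster 6 (105) and cluster 7 (90.1), each apart from the next beyond counting error, and cluster 17 stood at 319 from 33 UMIs.

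Over both callus libraries, Pthlh, the gene of PTHrP, had its highest level in the skeletal cluster with the lowest Ihh. It led in the stromal-like cells of both libraries, at 17.5 CPM (13.9 to 21.7) in control and 13.7 (9.88 to 18.5) in GCs. Cluster 9 came second in control at 8.27 CPM, and the hypertrophic-like cells had 0.94 CPM from 12 UMIs. Pthlh was 5.83-fold (4.01 to 8.55) higher in stromal-like cells than in cluster 6 of the control callus, and 2.47-fold (1.60 to 3.78) higher in GCs.

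Its receptor gene Pth1r was broad across the skeletal cells. In control callus the level was 1195 CPM in cluster 6, 1043 in cluster 7 and 1015 in osteoblast-like cells, the last pair not apart beyond counting error. It was 647 in hypertrophic-like cells, 433 in cluster 9 and 332 in stromal-like cells. In GCs callus, osteoblast-like cells (901 CPM) and cluster 6 (891) were highest and did not differ beyond counting error, and hypertrophic-like (450) and stromal-like cells (441) were lowest.

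Ptch1, the Hedgehog receptor and a target of the signal, ran against Ihh. In control callus it was 591 CPM in the cycling cluster 24, 511 in stromal-like cells, 485 in cluster 9 and 365 in osteoblast-like cells, each apart from the next beyond counting error. It was 164 in cluster 6, and 42.9 and 40.2 in the hypertrophic-like cells and cluster 7, the clusters with the most Ihh, which did not differ from each other. In GCs callus the stromal-like cells led at 495 CPM, followed by cluster 9 (295), osteoblast-like cells (248) and cluster 6 (187), and hypertrophic-like cells had 31.2. Smo, the signal transducer, was flatter, at 61.7 CPM in control stromal-like cells and between 23.7 and 39.6 in the other control clusters, most of which overlapped with their neighbours.

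Of the transcription factors, Gli1 had the steepest gradient, with 24.8 CPM (20.5 to 29.7) in control stromal-like cells, 13.4 in cluster 9, 12.8 in osteoblast-like cells and 2.94 in cluster 6. The cycling cluster 24 had 19.0 CPM of Gli1, above cluster 9 and not apart from the stromal-like cells beyond counting error. In the hypertrophic-like cells it had 3 UMIs in control and 2 in GCs. Gli2, a main activator of the pathway, was also highest in stromal-like cells, at 14.7 CPM in the control callus, and clusters 9 (8.49) and 24 (7.19) did not differ beyond counting error. Gli3, which acts largely as a repressor, was more even, from 12.5 CPM in cluster 7 to 44.0 in cluster 24 of the control callus. The 27 pericyte-like cells had Gli1 at 32.1 CPM from 9 UMIs over both libraries.

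Hhip, a decoy that binds Hedgehog ligands at the cell surface, held most of its UMIs in 1 cluster, the osteoblast-like one. It had 181 CPM (167 to 195) in control osteoblast-like cells and 86.6 (78.2 to 95.6) in GCs, against 16.9 and 21.2 in stromal-like cells. Cluster 9 had 8.19 CPM from 109 UMIs in control and 0 UMIs in GCs, which allows up to 2.25 CPM. Cluster 7 had 0 UMIs of Hhip in control, which allows up to 0.257 CPM, and 3 in GCs. Outside the skeletal classes, endothelial-like cells had Ptch1 at 53.1 CPM over both libraries, 2.50-fold (1.62 to 3.90) the B cell-like level. The 27 pericyte-like cells had Ptch1 at 107 CPM from 30 UMIs, 5.04-fold (3.04 to 8.28) that level.

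**Figure D2:**
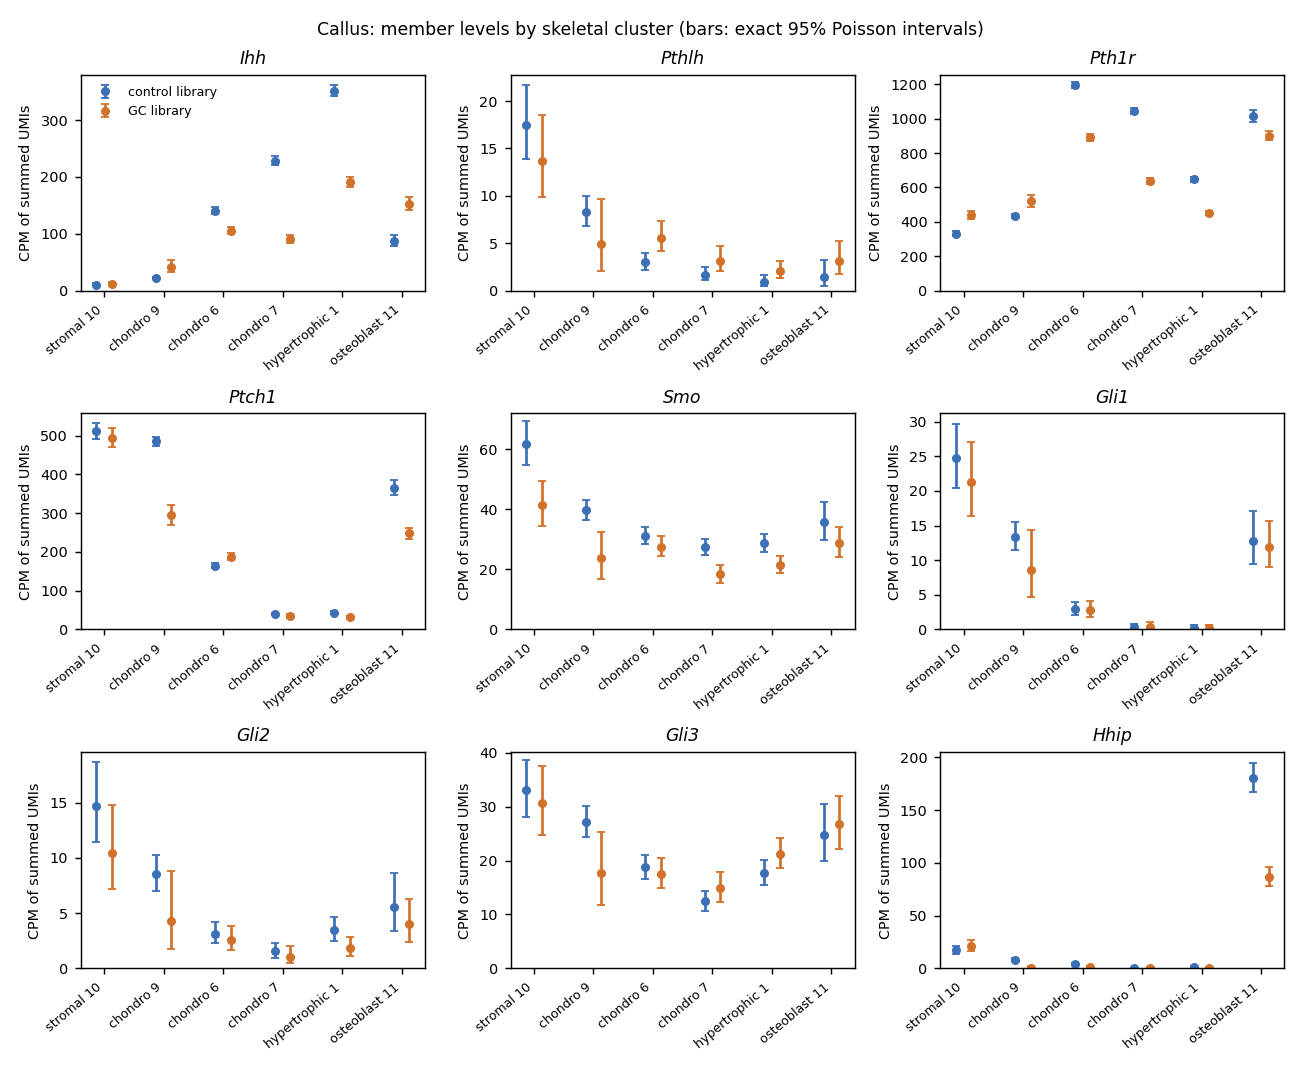
Level of each member (CPM of summed UMIs, vertical axis from 0) in the callus skeletal clusters, for the control and GCs library, with bars for exact Poisson intervals. Ihh peaks in the hypertrophic-like cluster in control (352 CPM), whereas Ptch1, Gli1 and Pthlh are low there and high in the stromal-like cluster, and Hhip stands out in the osteoblast-like cluster.

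To describe the genes along cartilage maturation, cells of the chondrocyte-like and hypertrophic-like clusters were binned by their own level of Col10a1, the type X collagen gene. Cluster naming still decided which cells entered. The unnamed clusters were left out, among them cluster 2 (34 control and 1078 GCs cells), which had Col10a1 among its 10 leading genes. The bins over 100 to 1000, over 1000 to 10000 and over 10000 CPM held 565, 561 and 1179 control cells and 175, 447 and 901 GCs cells. Only these 3 bins are compared, and the lowest bin below means over 100 to 1000 CPM. Cells at 0 (69 cells, median 911 UMIs) and at over 0 to 100 CPM (25 cells) were too few. Over both libraries Ihh stood at 65.0 CPM (14 UMIs) and 63.4 CPM (45 UMIs) in them, above the 32.3 CPM of the lowest bin compared. In control, Ihh stood at 27.0, 99.9 and 293 CPM in the 3 bins, 10.8-fold (9.81 to 12.0) higher in the highest than in the lowest. In GCs the Ihh values were 53.0, 120 and 153 CPM, a 2.88-fold (2.50 to 3.34) range. The libraries thus crossed: Ihh was higher in GCs in the lowest bin and lower in the highest.

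Pth1r had 491, 922 and 964 CPM in the 3 control bins and 651, 721 and 601 in GCs, so that the highest bin was 1.96-fold (1.91 to 2.01) the lowest in control and 0.923-fold (0.884 to 0.964) in GCs. Ptch1 went the other way in both libraries, with 486, 194 and 46.6 CPM in control and 272, 117 and 41.5 in GCs. Its lowest bin was 10.4-fold the highest in control and 6.55-fold in GCs. Gli1 had 13.9, 3.38 and 0.553 CPM in control and 4.59, 1.73 and 0.292 in GCs. Pthlh had 7.72 CPM in the lowest and 1.66 in the highest control bin, and 7.39 and 2.75 in GCs. Clusters 9 and 24 made up 77.7% of the lowest bin in control but 23.4% in GCs, and the part of that difference in these values was not tested.

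**Figure D3:**
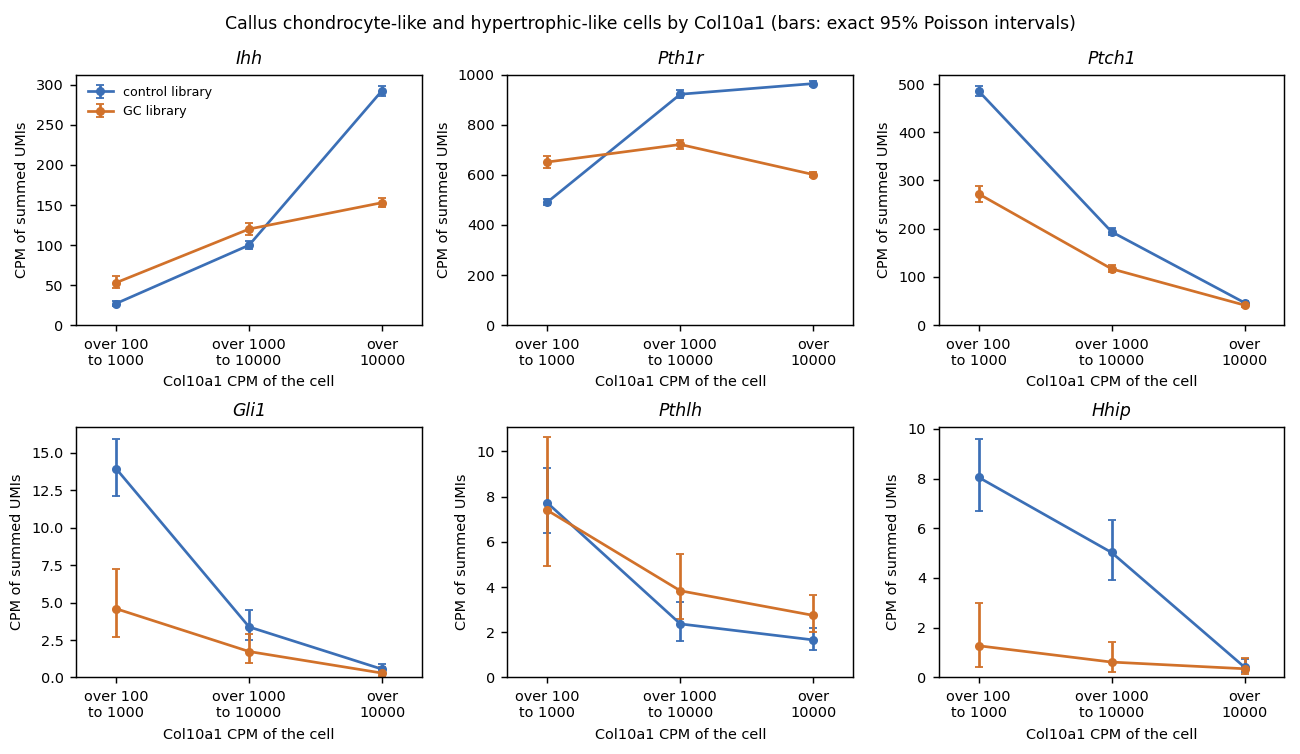
Level of the members (CPM of summed UMIs, vertical axis from 0) in chondrocyte-like and hypertrophic-like callus cells in 3 bins of the Col10a1 level of the cell (horizontal axis), with exact Poisson intervals. Ihh is higher in bins of higher Col10a1, over a wider range in control (27.0 to 293 CPM) than in GCs (53.0 to 153 CPM), and Ptch1 and Gli1 are lower in those bins in both.

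The share of cells with a UMI was compared after thinning each cell to 1000 UMIs. Ihh was detected in 21.2% (18 to 24.6) of control hypertrophic-like cells and 14.6% (12.0 to 17.6) of GCs ones, against 1.36% and 0.573% of B cell-like cells. Without thinning the Ihh shares were 70.1% and 52.4%, at median depths of 18753 and 15648 UMIs, and the B cell-like shares 2.73% and 1.28% at 1918.5 and 1681 UMIs. Thinning left out 14 control and 16 GCs hypertrophic-like cells. Ihh was found in 11.2% of control and 11% of GCs osteoblast-like cells.

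Ihh and Pth1r were often seen in the same thinned cell. Over both libraries, Pth1r was found in 70.3% (63.6 to 76.4) of the 209 chondrocyte-like cells with Ihh and in 46.3% (44.2 to 48.4) of those without. In hypertrophic-like cells the Pth1r shares were 57.5% (50.8 to 64.0) of 228 cells with Ihh and 34.8% (31.9 to 37.8) of the rest. Ptch1 was found in 6.70% (3.71 to 11) of chondrocyte-like cells with Ihh and in 15.6% (14.1 to 17.1) of those without, but in hypertrophic-like cells the Ptch1 shares were 4.39% (2.12 to 7.92) and 2.85% (1.93 to 4.04). The ligands Ihh and Pthlh were seen together in 1 of the 209 Ihh-positive chondrocyte-like cells and in 0 of the 228 hypertrophic-like ones, which allows up to 1.60%, and Pthlh was seen in few thinned cells at all. In osteoblast-like cells, Hhip was found in 15.5% (8.92 to 24.2) of the cells with Ptch1 and in 4.35% (2.45 to 7.07) of those without. Each class mixes clusters or states, and cells of 1 library are not replicates.

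Across the 29 callus clusters of at least 30 cells, the genes whose level (log2 of CPM with 5 added) was most like each member were listed by Pearson correlation among about 10391 genes, as a description of clusters that share libraries and depth. Ihh was most like Tpd52l1 (0.938), Wnk4 (0.927) and Irx5 (0.919), and Pthlh most like Bmpr1b (0.942), Fbn2 (0.940) and Hhat (0.929). Pth1r was most like Smpd3 (0.990), Susd5 (0.986) and Snhg18 (0.985). Ptch1 was most like Cyp26b1 (0.952), Clec11a (0.948) and Prrx1 (0.948), and Smo most like Prrx1 (0.957), Poglut2 (0.957) and Tcaf1 (0.957). Gli1 and Gli2 were both most like Brinp3 (0.942 and 0.962), followed by Hhipl1 and Fndc1 for Gli1 and by Ece2 and Scarf2 for Gli2. Gli3 was most like Colec12 (0.980), Ddr2 and Hoxc10, and Hhip most like Mmp16 (0.878), Kazald1 and Lrrc17.

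The GCs library was compared with the control library within each callus class, to see whether the loop genes differed under GCs. Ihh was lower in the hypertrophic-like cells of the GCs library, and Ptch1, Gli1 and Hhip were lower in its chondrocyte-like cells. In its osteoblast-like cells Hhip was lower and Ihh higher. Among stromal-like cells no member was past the fold used, although Pth1r, Hhip, Ihh and Gli2 each were under at least 1 alternative. A member was called when log2 of CPM with 5 added differed by more than 1.5-fold and the libraries together held at least 50 UMIs, which is a size and not a test.

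In hypertrophic-like cells Ihh had 352 CPM in control and 191 in GCs, a ratio of 0.542 (0.514 to 0.571). Ihh was the only member called there, of the 6 over the UMI minimum, with 1 lower and 0 higher, where 2.41% of 10753 genes were called lower and 2.67% higher. Pth1r had a ratio of 0.695 (0.671 to 0.720), Ptch1 0.729 (0.634 to 0.837) and Smo 0.752 (0.635 to 0.889), all short of the fold. Gli2 had 3.45 and 1.86 CPM from 44 and 20 UMIs. At this low level its log2 ratio was -0.30 with 5 CPM added, short of the fold. It was -0.64 with 1 CPM added, the 1 of 8 alternatives that took Gli2 past the fold. The median log2 ratio of the 6 members was -0.37, against -0.01 for all genes. With 5 of the processing alternatives there was no hypertrophic-like class to compare. Under the others Ihh was lower in GCs in 11 of 11 and past the fold in 9. Most of those 11 reused the reported clusters, so their direction is not independent of the reported one. New clustering kept the class only with at least 1000 UMIs per cell, at most 5% mitochondrial UMIs or Leiden resolution 2.

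In chondrocyte-like cells 3 of 9 members were called lower and 0 higher, where 3.34% of 12658 genes were called lower and 1.48% higher. Ptch1 had 241 CPM in control and 135 in GCs, a ratio of 0.558 (0.534 to 0.582). Gli1 had 6.01 and 2.29 CPM, a ratio of 0.381 (0.271 to 0.526), and Hhip 4.23 and 0.625 CPM, a ratio of 0.148 (0.0751 to 0.264). Gli1 was past the fold in 7 of 17 alternatives and Hhip in 8 of 17. Ihh had a ratio of 0.737 (0.699 to 0.777), Smo 0.720 (0.646 to 0.801), Gli2 0.473 (0.328 to 0.667) and Pthlh 1.11 (0.854 to 1.44). These ratios have nothing added to the CPM. With 5 CPM added, the log2 ratio of Gli1 was -0.595, just past the fold, and that of Gli2 -0.409, short of it. The median log2 ratio of the 9 members was -0.41, against -0.02 for all genes.

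The makeup of this class moved with these values. The Ucma-led clusters 9 and 24, which carried the most Ptch1 and Gli1 among the chondrocyte-like clusters, held 561 of the control chondrocyte-like cells and 66 of the GCs ones. Without them the log2 ratio of Ptch1 was 0.16 in place of -0.82, that of Gli1 was -0.0022 in place of -0.59, that of Hhip -0.27 in place of -0.71, and the median of the members -0.10. The same step moved Ihh the other way, from -0.42 to -0.84, which is past the fold, and Pth1r from -0.23 to -0.53. Gli3 turned from -0.24 to 0.04. Within cluster 6 Ptch1 had 164 CPM in control and 187 in GCs, a ratio of 1.14 (1.08 to 1.22). Within cluster 9 Ptch1 was lower in GCs (0.607; 0.552 to 0.666), as was Smo (0.600; 0.422 to 0.832), on 60 GCs cells. The lower Ptch1 of the whole class was thus not seen in each of its clusters.

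Ihh, in turn, differed by cluster. In cluster 7 it had 228 CPM in control and 90.1 in GCs, a ratio of 0.395 (0.363 to 0.428), and Pth1r had a ratio of 0.609 (0.590 to 0.629) in the same cells. In cluster 6 the Ihh ratio was 0.750 (0.694 to 0.809), and in cluster 9 it was 1.91 (1.45 to 2.49), from 293 UMIs in control and 69 in GCs. Ihh was thus lower in GCs in the hypertrophic-like cluster and in clusters 6 and 7, and higher in the Ucma-led cluster 9.

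In osteoblast-like cells 1 of the 7 members over the minimum was called lower and 1 higher, where 2.55% of 8683 genes were called lower and 4.0% higher. Hhip had 181 CPM in control and 86.6 in GCs, a ratio of 0.479 (0.422 to 0.544), and it was past the fold in 12 of 15 alternatives. Ihh had 87.1 and 153 CPM, a ratio of 1.75 (1.53 to 2.01), and was past the fold in 8 of 14. After thinning to 1000 UMIs its log2 ratio was 0.03. Ptch1 had a ratio of 0.678 (0.626 to 0.735) and Pth1r 0.888 (0.849 to 0.928). Bglap, a defining marker of the class, had 547 CPM in control and 258 in GCs, and its part in these values was not tested.

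In stromal-like cells 0 of 9 members were called in either direction, where 5.71% of 8931 genes were called lower and 3.43% higher. Ptch1 had 511 and 495 CPM, a ratio of 0.969 (0.908 to 1.03), and Gli1 24.8 and 21.2 CPM, a ratio of 0.857 (0.622 to 1.17). Pth1r had a ratio of 1.33 (1.23 to 1.43) and Smo 0.672 (0.541 to 0.831). The direction for Pth1r turned when each library was clustered alone (log2 ratio -0.19), and Pth1r was past the fold in 4 of 15 alternatives. Hhip had 16.9 and 21.2 CPM, a ratio of 1.26 (0.892 to 1.77), and its log2 ratio ran from -0.20 to 1.64 over 13 alternatives, 4 of them past the fold. Its 65 UMIs in the GCs library came from 11 of 198 cells, with up to 22 in 1 cell. Ihh was past the fold in 2 of 9 alternatives. The log2 ratio of Gli2, reported as -0.35, turned to 0.66 with each library clustered alone.

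**Figure D4:**
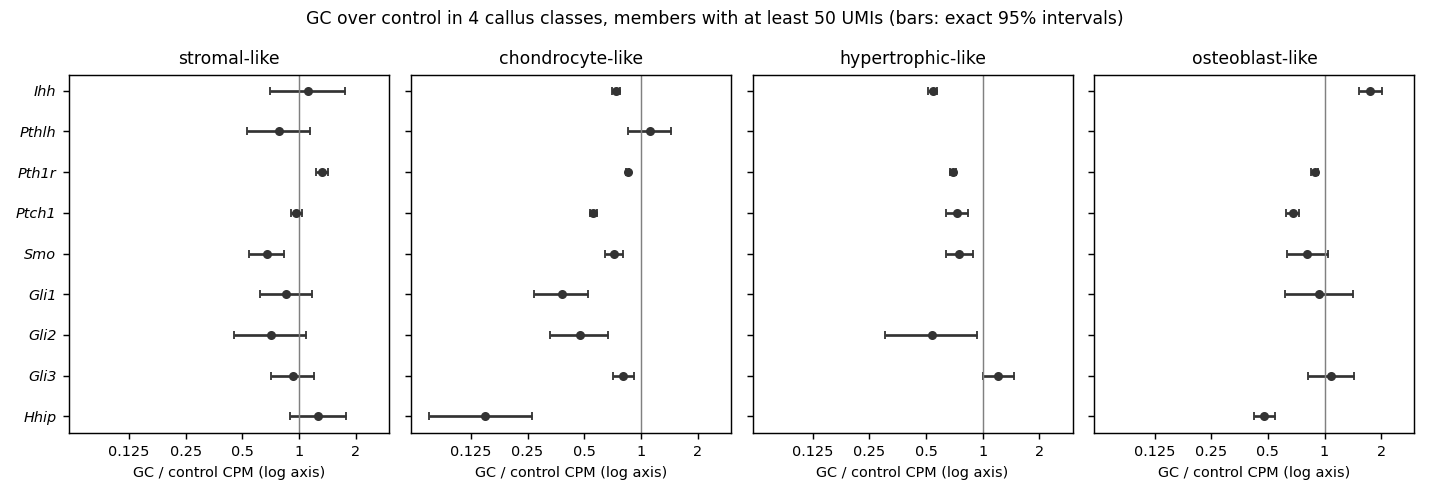
GCs over control ratio of CPM (horizontal axis, log scale) of the members with at least 50 UMIs in 4 callus classes, with exact conditional intervals. Ihh is left of 1 in hypertrophic-like (0.542) and chondrocyte-like cells (0.737) and right of 1 in osteoblast-like cells (1.75), and the stromal-like Ptch1 and Gli1 intervals hold 1.

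Other genes of both pathways were read from fixed lists. Among Hedgehog targets, 2 of the 8 over the minimum were called lower in chondrocyte-like cells (3.34% of all genes were) and 2 of 6 in hypertrophic-like cells (2.41% of all genes), with 0 higher. They were Ccnd1, the cyclin D1 gene, at 90.8 and 58.3 CPM in chondrocyte-like and 28.0 and 13.5 in hypertrophic-like cells, and Foxc2, a forkhead factor, at 48.1 and 24.5 and at 49.9 and 20.8 CPM. The log2 ratio was under 0 for 6 of the 8 targets in chondrocyte-like and 5 of the 6 in hypertrophic-like cells. In chondrocyte-like cells the targets Ccnd2 (34.1 and 53.4 CPM) and Foxc1 (162 and 244 CPM) were higher. Their log2 ratios, 0.579 and 0.576, were just short of the fold. Lower and also short of it were Foxf1 at -0.582 (6.54 and 2.71 CPM) and Sfrp1 at -0.538 (5.28 and 2.08 CPM). Foxc2 was also the 1 target called lower of 6 in osteoblast-like cells (2.55% of all genes), at 59.0 and 29.7 CPM. Of the genes for ligand release, Scube2, whose product helps free the lipid-modified ligand, had 4.84 and 0.833 CPM in chondrocyte-like cells. It was called lower, on 16 UMIs in GCs, and was the 1 gene called of the 5 over the minimum. Most of the others went the other way. Their log2 ratios were 0.404 for Disp1, 0.343 for Scube3 and 0.33 for Scube1, but -0.123 for Hhat. The median of the 5 was 0.33, against -0.02 for all genes. In osteoblast-like cells Scube3 had 15.6 and 28.1 CPM and was called higher. It was the 1 call of the 4 over the minimum, where 4.0% of all genes were called higher. The chondrocyte-like values of these genes without clusters 9 and 24 were not computed. In stromal-like cells, where 3.43% of all genes were called higher and 5.71% lower, 2 of the 4 release genes were called higher, Scube1 at 43.1 and 68.6 CPM and Scube3 at 7.69 and 23.8 CPM, and Scube2 was called lower at 16.4 and 6.20 CPM. The stromal-like calls in the other lists were all higher. They were 1 of 4 co-receptors, Gpc3, a glypican that binds Hedgehog, at 6.40 and 15 CPM, and 1 of 10 Gli regulators, Prkaca, a catalytic subunit of protein kinase A, at 10.2 and 22.5. The others were 1 of 9 cilium genes, Ift140, at 5.12 and 11.4, and 1 of 7 targets, the cyclin D2 gene Ccnd2, at 59.6 and 101. With so few genes per list, 1 call is not a result about the list. No gene of the PTHrP signalling list was called in any of the 4 classes, with 14 of 16 over the minimum in each. Across the classes 1.48% to 5.71% of all genes were called in a direction, so 0 of 14 is near that share. Prkaca was placed with the Gli regulators and is not in the PTHrP list.

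The trabecular libraries held few skeletal cells, 18 stromal-like cells in control and 44 in GCs, and no cartilage class, with Col2a1 at 0 UMIs in the control stromal-like cells. Ihh had 0 UMIs in these cells of both libraries, which allows up to 9.51 CPM over both. Pth1r had 30 UMIs in 7 of the 18 control cells, or 230 CPM (155 to 328), and 4 UMIs, or 15.5 CPM, in GCs. That ratio of 0.0675 (0.0173 to 0.192) rests on fewer UMIs than the minimum of 50 over both libraries, so it could not be called. It stood beside an osteoblast marker difference in the same cells, Bglap at 2246 CPM in control and 19.4 in GCs, and the part of the cell makeup was not tested. Pthlh had 53.7 CPM (21.6 to 111) in control, from 7 UMIs in 4 cells, and 11.7 CPM (2.40 to 34.0) in GCs, from 3 UMIs in 2 cells. The control level was above the 17.5 CPM (13.9 to 21.7) of the callus stromal-like cells, with intervals that just overlap. Ptch1 had 46.0 and 50.5 CPM and Smo 38.3 and 50.5, from 6 and 5 UMIs in control.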

How the data were processed

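The authors deposited 1 gene-by-barcode matrix of UMI counts per library (10x Genomics scRNA-Seq), not normalized. The file headers name Cell Ranger 4 (4.0.0 for the GCs callus) and the submitters' processing notes Cell Ranger 5.0.1, Seurat 3.2.0 and mm10. In the 3 libraries that list all barcodes, cells were barcodes over a UMI cutoff (10% of the 99th percentile of the top 3000 barcodes) plus barcodes of at least 500 UMIs that differed from empty droplets (false discovery rate 0.01, 10000 draws). The GCs callus, which lists 7762 barcodes, was used as deposited. Cells needed 200 genes and at most 10% mitochondrial UMIs, and predicted doublets were removed at 0.8% per 1000 cells. Each tissue was clustered with both libraries together (scanpy 1.11.5, 2000 variable genes, 30 components, 15 neighbours, Leiden resolution 1). Only lists with at least 3 detected markers could name a cluster. Of these, it took the list with the highest mean log2 fold over the other clusters. It was left unnamed when its 10 leading genes held more markers of another list. Callus clusters 2, 19 and 22, each with all 15 chondrocyte markers, were left unnamed in this way.

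UMIs were summed per class and library and given as CPM. Intervals (95%) were exact Poisson for levels, exact conditional for ratios and Clopper-Pearson for shares. Ratios and their intervals were of CPM with nothing added. Log2 ratios and calls used CPM with 5 added. A call needed at least 50 UMIs over both libraries and a difference past 1.5-fold. There was 1 library per group, so no test was run. Named genes were the 9 members, the genes of the pathway lists and the 3 genes most like each member among genes with at least 500 UMIs, plus cartilage markers where bins are described. The members, lists and classes were chosen with earlier results of these data known. Ratios and cell calling were tested on simulated data. Of the alternatives, 17 were planned and 2 were chosen after seeing the data.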

Additional observations from a re-analysis of the deposited data

Results flagged for a closer look

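The ratio of Ihh between the GCs and the control callus lay on opposite sides of 1 in different classes, at 0.737 in chondrocyte-like, 0.542 in hypertrophic-like and 1.75 in osteoblast-like cells. The Pth1r ratio was 0.850 in chondrocyte-like, 0.695 in hypertrophic-like and 0.888 in osteoblast-like cells but 1.33 in stromal-like cells. The Gli3 ratio was 0.807 in chondrocyte-like and 1.21 in hypertrophic-like cells. Both Gli3 directions turned under 1 alternative each, to a log2 ratio of 0.04 in chondrocyte-like cells without clusters 9 and 24 and to -0.10 in hypertrophic-like cells at Leiden resolution 2. Ihh in chondrocyte-like cells also turned, to a log2 ratio of 0.01 as a mean over cells, and Pth1r in stromal-like cells to -0.19 with each library clustered alone. Ihh in osteoblast-like cells kept its direction in 14 of 14 alternatives, but its log2 ratio fell to 0.03 after thinning to 1000 UMIs. Each flagged gene stands out because its counting intervals lie on opposite sides of 1 in different classes. With 1 library per group the difference between classes was not tested.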

How the results depend on the processing

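No paired analysis was possible because each group holds 1 library, and no replicate could be left out for the same reason. Alternatives that changed only the counts or the ratio reused the reported clusters, so their values are not independent of the reported ones. The alternatives gave 59 values for the median log2 ratio of the members. Of these, 54 kept the sign of the reported value, and 53 lay between the medians of the members' lower and upper counting bounds. In stromal-like cells 10 of 15 kept the sign, and in the other classes all did. Single values moved more often. Of 436 log2 ratios of single members, 122 left their counting interval and 1 more was counted as reversed. A ratio counted as reversed only if the reported value was past 1.5-fold and its sign turned. Smaller ratios turned more often. Ptch1 in stromal-like cells kept its sign in 9 of 15 alternatives, and Gli1 in osteoblast-like cells in 7 of 12. Of 315 values for the level of a member in a class, 162 left theirs. Counting error thus does not cover the spread over processing, and levels of single clusters were not recomputed. In chondrocyte-like cells the median (reported as -0.41) was -0.25 at Leiden resolution 0.5, -0.58 with every cell thinned to 1000 UMIs, -0.23 with 20 CPM added and, in an alternative chosen after seeing the data, -0.10 without clusters 9 and 24. In stromal-like cells (reported as -0.09) it was 0.35 with at least 1000 genes per cell and 0.34 with each library clustered alone. Without clusters 9 and 24 the log2 ratio of Ptch1 in chondrocyte-like cells reversed from -0.82 to 0.16. Counting cluster 2 in with the chondrocyte-like cells, also chosen after seeing the data, gave a median of -0.43. Past 2-fold in place of 1.5-fold, Hhip in osteoblast-like cells was the only member called, and the genes called lower and higher were 98 and 32 in place of 423 and 187 in chondrocyte-like cells, 39 and 28 in place of 259 and 287 in hypertrophic-like cells, 28 and 37 in place of 221 and 347 in osteoblast-like cells, and 95 and 37 in place of 510 and 306 in stromal-like cells. No hypertrophic-like class was found with only barcodes over the UMI cutoff or with at least 1000 genes per cell. The same held with no doublet removed and at Leiden resolution 0.5. With each library clustered alone, the class was found in control (622 cells) but not in GCs (0 cells), so no ratio was formed. The cutoff also left no stromal-like class, and resolution 0.5 no osteoblast-like class. Except for what follows from the construction of an alternative, the cause was not tested. Pthlh, Gli1 and Gli2, with 169 to 516 UMIs per callus library, are limited by depth.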

Other observations

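The unnamed callus cells of the GCs library also held UMIs of the loop genes. In its cluster 2 (1078 cells) Ihh stood at 88.4 CPM (80.4 to 97.1), Pth1r at 626 (604 to 648), Ptch1 at 155 (144 to 166) and Gli3 at 25.1 (20.9 to 29.9). Cluster 19 (168 cells) had Ihh at 64.9 CPM, Pth1r at 432 and Ptch1 at 115, and cluster 22 (99 cells), which held 6 neutrophil markers, had Ihh at 72.4, Pth1r at 768 and Ptch1 at 185. These clusters had few control cells, so no ratio is given. Empty droplets of the control callus held Ihh at 121 CPM, Pth1r at 573 and Ptch1 at 177. The median depth of the GCs cells was 2770 UMIs in cluster 2, 7236.5 in cluster 19 and 2185 in cluster 22. The part of free RNA or of doublets in these levels was not tested.

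Among the blood cells of trabecular bone, over both libraries, Smo stood at 7.69 CPM (6.12 to 9.53) in progenitor-like cells and had 0 UMIs in neutrophil-like cells, which allows up to 0.100 CPM. Ptch1 had 47.7 CPM (24.6 to 83.3) in the 34 dendritic-like cells, from 12 UMIs, against 7.58 (4.24 to 12.5) in B cell-like cells.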
